A study of Mus musculus with 22 samples.

Results

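The data described here are 4 gene count libraries of mouse cultures, 2 with AICAR and LIF and 2 with AICAR alone, taken from a series of 22 libraries. They were chosen by their labels: AICAR+LIF on day 8 (d8) and day 16 (d16) against AICAR on d8 and d16, with 1 library for each medium and day. All 4 came from Oct4GIP, a primed mouse epiblast stem cell (mEpiSC) line of strain 129/Ola that carries a transgene in which Oct4 regulatory sequence drives eGFP and puromycin resistance. The cells were plated on mouse embryonic fibroblast (MEF) feeders with FGF2 and Activin A for a day, and then changed to Basal medium, which contains serum and serum replacement, with AICAR or with AICAR and LIF. AICAR is an activator of the kinase AMPK, and its dose was lower in the first days than later. Whole cultures were collected without sorting, so feeder RNA is part of each library. The study used LIF with AICAR to ask how the cytokine bears on the return of primed cells to a naive state. Also used here were the 4 libraries of the same line and days in Basal medium alone or in 2iL. In these early cultures 2iL was Basal medium with inhibitors of MEK and GSK3 and LIF. A further 8 libraries came from AICAR or AICAR+LIF cultures that had then been expanded in 2iL. Of these, 6 were Oct4GIP after 2, 3 or 10 passages and 2 were the line 129/MSM after 10 passages. The paper describes this expansion on gelatin, with 2iL added to a serum-free medium or to Basal medium. The surface therefore changed from feeders to gelatin, and the base medium and serum may have changed too. A single line was used for the early cultures, and the labels do not say whether d8 and d16 came from separate cultures, so p-values measure only the spread between these libraries.

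LIF (leukaemia inhibitory factor) binds a receptor made of Lifr and the shared subunit gp130, encoded by Il6st. The receptor activates JAK kinases, which phosphorylate the transcription factor STAT3, and STAT3 turns on its own inhibitor Socs3 and other genes. In mouse embryonic stem cells this pathway supports self-renewal of the naive state through Klf4, Tfcp2l1 and other factors, and in many differentiated cells the same cytokine family switches on acute-phase genes such as Lcn2, Saa3, Hp and C3. Primed mEpiSCs depend instead on FGF and on Activin or Nodal signalling.

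The libraries differed in depth. The totals were 956357 counts (AICAR d8), 438771 (AICAR+LIF d8), 3231540 (AICAR d16) and 2686012 (AICAR+LIF d16). The AICAR+LIF d8 library was the shallowest, and a level of 3 counts, taken as the floor, corresponded there to 6.38 CPM against 0.936 to 2.95 CPM in the other 3. CPM levels are counts divided by the library size after TMM scaling, which sets the bulk of genes equal between libraries. The share of mitochondrially encoded counts was 2.04%, 2.56%, 2.40% and 2.75% in the same order. In the Basal and 2iL libraries totals ran from 2396575 to 5290163.

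The consensus motif of STAT factors, TTCNNNGAA, was looked for in the bases upstream of the RefSeq transcript starts (build GRCm38.p6), and the promoters of 3 genes whose levels are given below are shown because they hold it. The motif reads the same on both strands. It stood in 2197 of 27025 genes with a promoter sequence (8.13%), in 4 of 21 matched genes of the LIF-STAT3 target list (19.0%; Socs3, Irf1, Icam1 and Fgl2), in 2 of 7 matched genes of the 10 higher genes named below (28.6%; AW551984 and Gcnt2) and in 0 of 8 matched genes of the 10 lower ones (0.0%). These counts are small and describe the letters only. The sequences run 5′ to 3′ on the strand of the gene and end at the base before its start, with the motif in capitals.
Socs3 chr11:117969367-117969616 (minus strand): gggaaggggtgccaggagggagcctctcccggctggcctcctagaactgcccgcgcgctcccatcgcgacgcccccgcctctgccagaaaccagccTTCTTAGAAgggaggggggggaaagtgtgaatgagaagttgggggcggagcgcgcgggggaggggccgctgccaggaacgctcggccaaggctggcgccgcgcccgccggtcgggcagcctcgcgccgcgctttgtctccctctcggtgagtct
AW551984 chr9:39604125-39604374 (minus strand): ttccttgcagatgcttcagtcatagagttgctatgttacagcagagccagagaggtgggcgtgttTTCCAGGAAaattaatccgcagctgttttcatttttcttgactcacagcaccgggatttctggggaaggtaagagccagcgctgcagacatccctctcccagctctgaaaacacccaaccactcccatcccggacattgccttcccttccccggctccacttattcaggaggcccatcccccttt
Gcnt2 chr13:40886508-40886757 (plus strand): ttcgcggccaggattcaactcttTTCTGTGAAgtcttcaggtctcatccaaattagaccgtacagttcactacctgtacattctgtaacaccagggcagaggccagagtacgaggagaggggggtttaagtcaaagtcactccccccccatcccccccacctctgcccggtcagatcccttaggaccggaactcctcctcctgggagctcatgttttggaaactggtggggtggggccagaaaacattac
In Socs3, the feedback inhibitor of the pathway, the motif TTCTTAGAA began 154 bases before the start. In AW551984 it was TTCCAGGAA, 185 bases before the start shown, and in Gcnt2 it was TTCTGTGAA, 227 bases before the start of the transcript shown.

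Among the LIF-STAT3 target genes, Stat3 itself (chromosome 11, 100885098–100939540, GRCm38) was at 98.3 CPM with AICAR and 177 with AICAR+LIF on d8, and at 183 and 293 on d16. The level with LIF was above that without it on each day, by 1.79 times on d8 (95% counting interval 1.32 to 2.43) and 1.60 times on d16 (1.44 to 1.79). These intervals, like all given for the ratio within a day, cover counting error only. Socs3 (chromosome 11, 117966079–117970047) was at 42.3 and 65.9 CPM on d8 and at 74.6 and 200 on d16, a ratio of 1.56 (0.950 to 2.53) and of 2.68 (2.29 to 3.13). Bcl3, a nuclear partner of NF-kB subunits and a STAT3 target in embryonic stem cells, had 4 and 5 counts on d8 and 19 and 79 on d16, where the ratio was 5.06 (3.04 to 8.85). Ier3, an immediate early gene, was at 3.93 and 14.9 CPM on d8 and at 71.2 and 155 on d16. Il4ra, a cytokine receptor subunit, was at 34.4 and 51.0 CPM on d8 and at 8.43 and 75.6 on d16, with a d16 ratio of 8.97 (5.98 to 13.9). Each of these 5 genes was higher with LIF on both days, but on d8 only the interval of Stat3 lay above 1. On d16 the intervals of all 5 did. Timp1, an inhibitor of matrix proteases, was at 26.6 and 42.5 CPM on d8 and at 40.9 and 115 on d16.

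In the 4 libraries with AICAR, the acute-phase genes of the list were counted on d16 only. Lcn2, which encodes the iron-siderophore binding protein lipocalin 2, had 0 counts in both d8 libraries and 11 counts (3.43 CPM) with AICAR against 251 counts (95.3 CPM) with AICAR+LIF on d16, a ratio of 27.8 (15.3 to 56.4). Saa3, a serum amyloid, had 0 counts in both d8 libraries and 6 and 29 on d16 (ratio 5.88, 2.40 to 17.3). Hp, haptoglobin, had 0 on d8 and 4 and 15 on d16 (4.56, 1.45 to 18.9). On d8 the depth allowed levels of up to 2.95 CPM with AICAR and 6.38 CPM with AICAR+LIF for a count of 0. Complement C3, named after its values were seen, had 0 and 1 counts on d8 and 34 and 278 on d16 (9.95, 6.96 to 14.7), and the secreted chitinase-like protein Chil1, named likewise, had 1 and 1 on d8 and 23 and 339 on d16 (17.9, 11.8 to 28.7).

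The targets that are also known from naive self-renewal differed in direction. Klf4 was at 34.4 and 40.4 CPM on d8 and at 57.7 and 52.4 on d16, with both intervals spanning 1. Klf5 was at 8.85 and 10.6 CPM on d8 and at 60.5 and 20.1 on d16, a d16 ratio of 0.333 (0.241 to 0.453). Tfcp2l1 had 1 and 2 counts on d8 and 10 and 13 on d16, and Gbx2 had 1 and 1 and then 11 and 19, both higher with LIF in CPM on each day with intervals that span 1. Myc was at 25.6 and 31.9 CPM on d8 and at 52.7 and 36.1 on d16 (0.684, 0.526 to 0.885). On d16 the counting interval of the ratio lay above 1 for 16 of the 26 listed targets and below 1 for 2, Klf5 and Myc. On d8 it lay above 1 for 3, Stat3, Junb and Fgl2, and below 1 for 0. Intervals were not counted over all genes, so these counts have no background beside them. As they cover counting error only, genes of any kind can fall outside 1 at the d16 depth.

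Of the 26 targets, 14 were higher with LIF on both days and 0 were lower on both days, while 24.5% of all genes tested were higher and 27.7% lower on both days. The median fitted log2 fold change of the 26 was 0.80, against -0.02 over all genes tested. The list was chosen with earlier results of these data known, so these counts are not an independent test. Fitted values come from the quasi-likelihood test of edgeR on the 8 early libraries with terms for medium and day. In that fit 5 targets had an unadjusted p under 0.05 and a higher level with LIF (Lcn2, Bcl3, Ier3, Saa3 and Stat3) and 0 a lower one, beside 1.12% of all genes on the higher side and 1.18% on the lower. The fitted log2 differences were 4.76 ± 0.50 (SE) for Lcn2, 2.07 ± 0.49 for Bcl3, 2.5 ± 0.71 for Saa3, 1.30 ± 0.36 for Ier3 and 0.75 ± 0.26 for Stat3. The direction of Lcn2 turned without AICAR d16 (-0.50) and that of Saa3 without AICAR+LIF d16 (-1.45). None of the 26 passed at an adjusted p of 0.05 (Benjamini-Hochberg over all genes tested). Without AICAR d16 the count of 5 was 1, and without AICAR+LIF d16 it was 2.

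Among the receptor and signal transduction genes, Il6st was at 123 and 100 CPM on d8 and at 424 and 594 on d16, and Lifr was at 19.7 and 10.6 CPM on d8 and at 99.6 and 74.1 on d16. Jak1 and Jak2, the kinases bound to the receptor, had fitted log2 differences of 0.28 ± 0.30 and 0.01 ± 0.27. Osmr, the receptor subunit for the related cytokine oncostatin M, had 15 and 6 counts on d8 and 3 and 47 on d16, a d16 ratio of 19.1 (6.14 to 95.8). Il6ra, the receptor subunit for interleukin 6, had 3 and 3 counts on d8 and 10 and 33 on d16 (d16 ratio 4.02, 1.93 to 9.14), and it was the 1 member at least 2-fold higher on both days, as were 1.29% of all genes tested. On d16 the interval lay above 1 for 6 of the 12 genes and below 1 for 1, again without a count over all genes. Of the 12 genes, 6 were higher and 2 lower on both days, and 1 (Stat3) had an unadjusted p under 0.05. Over all genes tested 24.5% were higher and 27.7% lower on both days. The lists of targets and of signal transduction share 3 genes (Stat3, Socs3 and Osmr).

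2iL also contains LIF, so the same genes were set beside the difference between 2iL and Basal medium on d16. That difference uses other libraries but also carries the MEK and GSK3 inhibitors. Cell composition may differ too, as the 20 listed feeder and fibroblast markers summed to 8447 CPM in Basal and 62440 in 2iL on d16. Of these markers, 14 were at least 2-fold higher in 2iL. The part of composition in the ratios below was not tested. Lcn2 was at 0.950 CPM in Basal and 302 in 2iL, C3 at 16.2 and 544, Saa3 at 3.61 and 112, Il4ra at 15.0 and 183, and Bcl3 at 4.18 and 20.8. Of the 26 targets, 12 were at least 2-fold higher in 2iL than in Basal (8.69% of all genes tested), 11 were at least 2-fold higher in AICAR+LIF than in AICAR (5.34%), and 7 were both. Over all genes tested 263 were both, which is 31.8% of those at least 2-fold higher in AICAR+LIF and 19.6% of those at least 2-fold higher in 2iL. The d16 ratios of 2iL over Basal were smaller for Osmr (1.30, 0.696 to 2.36) and Socs3 (1.35, 1.25 to 1.46) than those of AICAR+LIF over AICAR given above. On d8 the order for Socs3 was the reverse, with a log2 ratio of 1.28 for 2iL over Basal and 0.64 for AICAR+LIF over AICAR. For Osmr the d8 log2 ratios were -0.14 and -0.21. The difference was not called for either gene in the test of it over both days (adjusted p over 0.05 with edgeR).

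**Figure D1:**
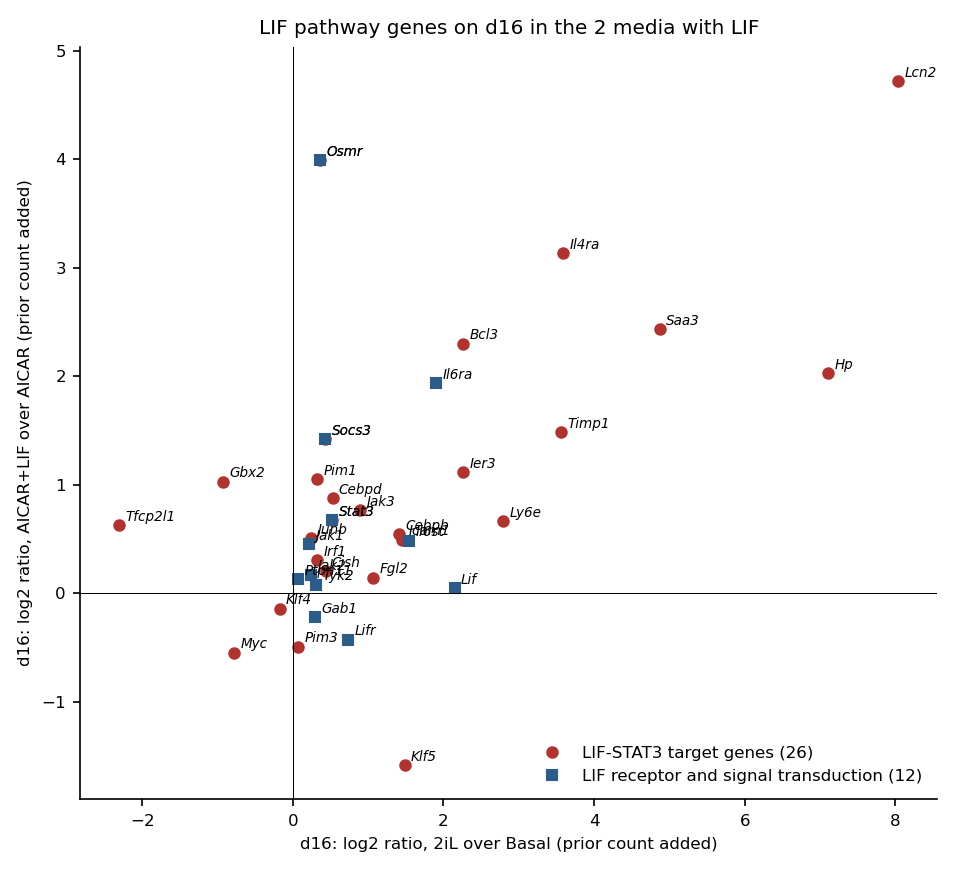
Each point is a gene of the LIF-STAT3 target list (26, circles) or of the LIF receptor and signal transduction list (12, squares); the x axis is the d16 log2 ratio of 2iL over Basal and the y axis the d16 log2 ratio of AICAR+LIF over AICAR, 1 library a side. Lcn2 lies far to the upper right, Osmr is high on the y axis alone and Klf5 is the lowest on it.

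Among the general pluripotency genes, Pou5f1 (Oct4; chromosome 17, 35506018–35510772), the core factor of primed and naive cells, had 15 and 18 counts on d8 (14.8 and 38.3 CPM) and 12 and 57 counts on d16 (3.75 and 21.7 CPM). The ratio was 2.60 (1.24 to 5.53) on d8 and 5.78 (3.07 to 11.8) on d16. Nanog (chromosome 6, 122707489–122714633) was at 23.6 and 80.8 CPM on d8 and at 4.37 and 29.3 on d16, a ratio of 3.42 (2.00 to 5.97) and 6.70 (3.76 to 12.8). Tdgf1, the Nodal co-receptor Cripto (chromosome 9, 110939603–110946158), was at 12.8 and 61.7 CPM on d8 and at 2.18 and 44.1 on d16, a ratio of 4.82 (2.43 to 10.1) and 20.2 (9.48 to 51.3). All 3 were higher with LIF on each day and lower on d16 than on d8 in either medium. In the 4 Basal and 2iL libraries Pou5f1 was at 0.760 to 1.42 CPM and Nanog at 1.42 to 4.99. In bulk libraries fewer cells of a type and less RNA per cell cannot be told apart. Pou5f1, Nanog and Tdgf1 have near-identical copies elsewhere in the genome, among which reads could be split or lost.

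In the Nodal and Activin list, Lefty1, a Nodal inhibitor that Nodal itself induces, was at 145 and 368 CPM on d8 (ratio 2.54, 2.03 to 3.19) and at 10.9 and 129 on d16 (11.8, 8.34 to 17.3). Lefty2 had 10 and 12 counts on d8 and 4 and 56 on d16 (17.0, 6.30 to 64.7). The 2 Lefty genes are close paralogs, and reads common to them could fall on either. Nodal had 30 and 22 counts on d8 (1.59, 0.872 to 2.84) and 3 and 22 on d16 (8.93, 2.68 to 46.6), and Inhba, an Activin subunit, was at 185 and 315 CPM on d8 and at 24.0 and 156 on d16. Of the 16 genes of the Nodal and Activin list that were tested, 11 were higher on both days and 2 lower, and 2 (Lefty1 and Lefty2) had an unadjusted p under 0.05. At least 2-fold higher on both days were 3 in this list (Lefty1, Lefty2 and Tdgf1). By that rule 1.29% of all genes were higher and 1.27% lower. By direction alone, 24.5% of all genes tested were higher and 27.7% lower on both days.

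Other pluripotency genes were not carried along evenly. Sox2 was at 195 and 113 CPM on d8 and at 125 and 99.9 on d16, lower with LIF on both days (0.579, 0.419 to 0.787, and 0.802, 0.684 to 0.940), and it is also a gene of neural progenitors. Sall4 had 39 and 17 counts on d8 and 24 and 36 on d16, and Lin28a had 33 and 17 on d8 and 10 and 11 on d16. Of the 14 general pluripotency genes tested, 7 were higher and 2 lower on both days, 4 (Pou5f1, Nanog, Tdgf1 and L1td1, the last on 1 to 5 counts a library) were at least 2-fold higher on both, and 2 (Pou5f1 and Nanog) had an unadjusted p under 0.05. The median fitted log2 fold change was 0.55. Over all genes tested 24.5% were higher and 27.7% lower on both days.

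Of the 26 listed naive genes, 15 had 3 counts or fewer in all 4 libraries, 11 had more in at least 1, and 8 were tested. The 11 include Nanog, Klf4, Klf5 and Tfcp2l1, whose values are given above. Of the 8 tested, 5 were higher and 0 lower on both days, beside 24.5% and 27.7% of all genes tested. Nanog, Pecam1 and Tfap2c were at least 2-fold higher on both days, and the median fitted log2 fold change of the 8 was 0.62. Zfp42 (Rex1) and Dazl had 0 counts in each. Dppa5a had 0 and 0 on d8 and 1 and 1 on d16, Nr5a2 0 and 1 and then 0 and 1, and Esrrb 0 and 0 and then 4 and 5. Klf2 had 1 and 3 counts on d8 and 53 and 24 on d16 (0.551, 0.325 to 0.909), and Pecam1, which endothelium also expresses, had 1 and 3 and then 12 and 24. For the 15 genes at 3 counts or fewer a difference was not detectable at this depth, and on d8 with AICAR+LIF a count of 0 allowed up to 6.38 CPM.

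**Figure D2:**
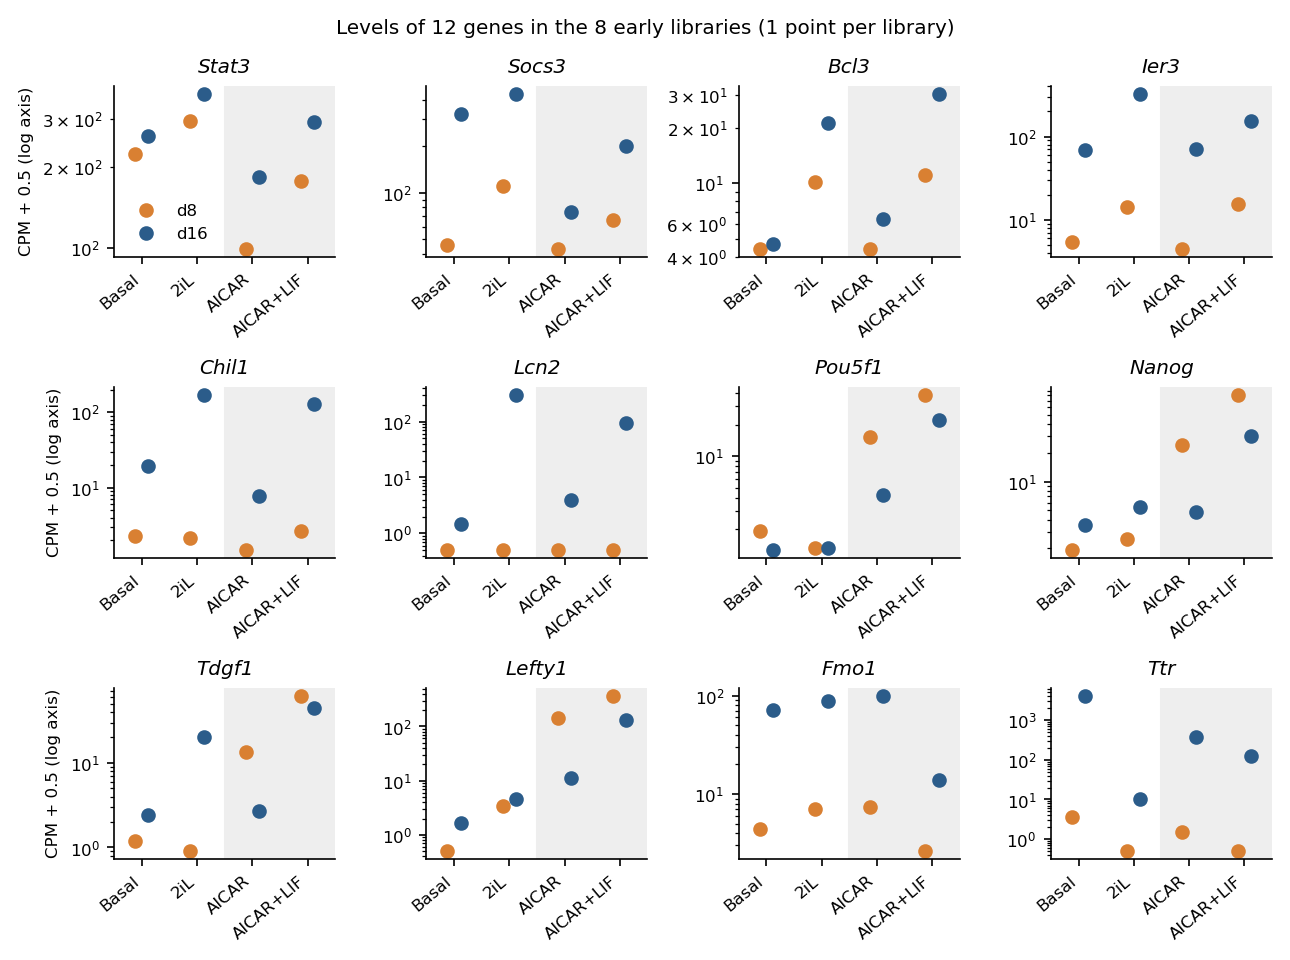
Levels of 12 genes in the 8 early libraries, as CPM plus 0.5 on a log axis, with 1 point per library, d8 and d16 in different colours and the 4 libraries with AICAR on a grey ground. Pou5f1, Nanog, Tdgf1 and Lefty1 are higher with LIF than with AICAR alone on each day, and in these media higher on d8 than on d16, whereas Lcn2 and Chil1 are highest on d16 in the 2 media with LIF.

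Across all genes, 15473 were tested for AICAR+LIF against AICAR, and 0 passed at an adjusted p of 0.05 (0.0%) in the 8-library fit with edgeR. Without replicates within a day, the spread in that fit comes from differences between media that changed from d8 to d16. A LIF difference that changed with the day therefore counts as spread, so 0 calls does not show that no gene differed. The smallest adjusted p was 0.501, and 173 genes on the higher side and 182 on the lower had an unadjusted p under 0.05. limma voom also gave 0, and DESeq2 gave 1, Aplnr, a receptor of angioblasts and other mesoderm, with 2 and 0 counts on d8 and 446 and 29 on d16. In the edgeR test on the 4 libraries alone, the spread comes from those 4 and rests on 1 residual degree of freedom. There 179 of 13284 genes were called higher (1.35%) and 141 lower (1.06%). In a 12-library fit, chosen after seeing the data, with a term for each AICAR and AICAR+LIF pair, early and expanded, the early difference gave 20 higher (0.123%) and 19 lower (0.116%) of 16315 genes. These 39 calls were 0 without the Oct4GIP d16 pair, 100 without the d8 pair, 23 without the 2-passage pair, 133 without the 3-passage pair and 63 without the 129/MSM pair, and they were 0 with no pair terms, 1 with at least 10 counts in every library, 351 with no filter, 22 with DESeq2 and 229 with limma voom.

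The 10 genes named on each side are those of smallest unadjusted p with at least 3 in mean log2 CPM that kept 1 direction over both days, and none is past the adjusted threshold. On the higher side these were AW551984, Prph, Bcl3, Actg2, Pou5f1, Gcnt2, Lefty2, Ier3, Ccl7 and Aopep. Prph, the intermediate filament peripherin of peripheral neurons, was at 3.93 and 29.8 CPM on d8 and at 17.5 and 72.6 on d16, and it was also higher in 2iL than in Basal (170 against 15.6 CPM on d8 and 409 against 124 on d16). Actg2, a smooth muscle actin, had 7 and 4 counts on d8 and 54 and 370 on d16 (8.34, 6.25 to 11.3). Ccl7, a monocyte chemokine, had 7 and 6 counts on d8 and 11 and 85 on d16 (9.41, 5.0 to 19.6). AW551984 had 3 and 5 counts on d8 and 33 and 98 on d16 (3.62, 2.41 to 5.54), and Gcnt2, a glycosyltransferase of branched poly-N-acetyllactosamine, 12 and 11 and then 38 and 99 (3.17, 2.16 to 4.74). Fitted log2 differences of the 10 ran from 1.30 (Ier3) to 2.69 (Lefty2).

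On the lower side the 10 were Fmo1, Egflam, Fgfr3, Ttr, Nppc, Rfx4, Foxd1, Aldh5a1, Asrgl1 and Gpc3. Fmo1, a flavin monooxygenase, had 7 and 1 counts on d8 and 318 and 35 on d16 (99.2 and 13.3 CPM), where the ratio was 0.134 (0.0917 to 0.190). Foxd1, a transcription factor of stromal progenitors, had 9 and 2 counts on d8 and 347 and 46 on d16 (0.161, 0.116 to 0.220). Fgfr3, a receptor for FGFs, was at 25.6 and 8.51 CPM on d8 and at 22.2 and 7.22 on d16. Rfx4, a factor of the neural tube, was at 78.7 and 36.2 CPM on d8 and at 99.9 and 55.1 on d16. Ttr, transthyretin, a product of visceral endoderm and choroid plexus, had 1 and 0 counts on d8 and 1227 and 326 on d16, while it had 21543 counts in Basal and 24 in 2iL on d16. Fitted log2 differences ran from -0.91 (Gpc3) to -2.82 (Fmo1). In the AICAR+LIF d8 library 6 of the 10 had 3 counts or fewer.

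**Figure D3:**
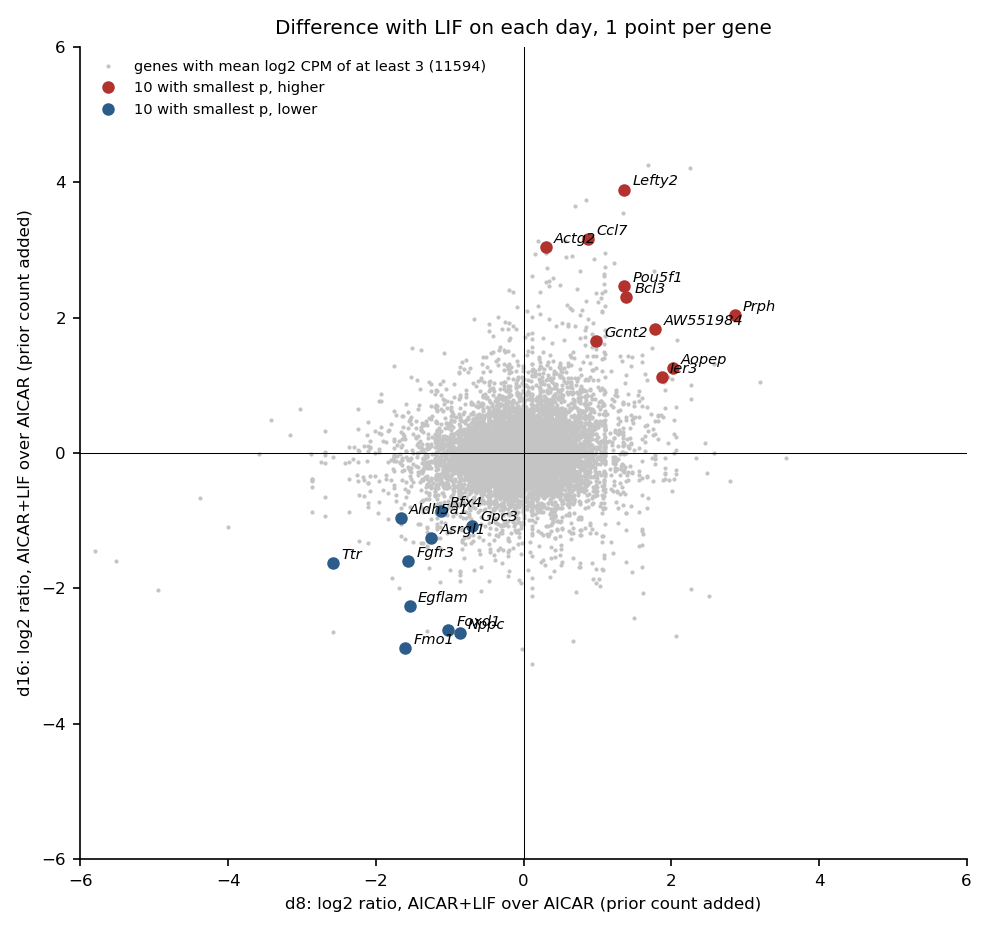
Each grey point is 1 of 11594 genes with a mean log2 CPM of at least 3; the x axis is the d8 and the y axis the d16 log2 ratio of AICAR+LIF over AICAR, with the prior count of 0.5 added. The 10 named genes with a higher level (red) lie in the upper right and the 10 with a lower level (blue) in the lower left, as their rule requires.

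Cell type and process lists were described by their counts. Over all genes tested 24.5% were higher and 27.7% lower on both days, which is the background for the counts in these lists. In the muscle and contractile list, Acta2 was at 524 and 940 CPM on d8 and at 243 and 888 on d16, Tagln at 146 and 230 and at 64.6 and 279, and Cnn1 at 26.6 and 55.3 and at 12.8 and 63.1. These smooth muscle genes were higher with LIF on both days. The cardiac actin Actc1 went opposite ways, with 23 and 61 counts on d8 (5.74, 3.5 to 9.71) and 170 and 32 on d16 (0.229, 0.152 to 0.336). Of 14 tested genes of this list 7 were higher and 0 lower on both days, 2 (Lmod1 and Cnn1) had an unadjusted p under 0.05, and the median was 0.92.

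Endothelial markers parted by gene and by day. Cdh5 (VE-cadherin; chromosome 8, 104101625–104144511) had 0 counts in both d8 libraries and 502 counts with AICAR against 9 with AICAR+LIF on d16, a d16 ratio of 0.0218 (0.00992 to 0.0418). Emcn had 2 and 0 counts on d8 and 39 and 2 on d16, Tek 1 and 0 and then 44 and 6, and Tie1 0 and 0 and then 21 and 0. Flt1, a VEGF receptor, had 16 and 16 counts on d8 and 6 and 36 on d16, the other direction. The summed level of the 15 listed markers was 36.4 and 57.4 CPM on d8 and 263 and 72.2 on d16. Cdh5 alone made up most of the d16 sum with AICAR, so the sum does not describe the list as a whole. Of the 15, 5 (AICAR) and 9 (AICAR+LIF) were at 0 counts on d8, and 2 and 3 on d16. Of the 9 tested, 2 (Flt1 and Pecam1) were higher and 3 (Emcn, Kdr and Tek) lower on both days. Unadjusted p in edgeR was under 0.05 for 1 higher (Flt1) and 2 lower (Cdh5 and Emcn). The fitted log2 difference of Cdh5 was -5.46 ± 0.61, and without AICAR d16 it was 0.16.

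Markers of other cell types were summed likewise. The 20 feeder and fibroblast markers summed to 5132 and 4968 CPM on d8 and to 20840 and 24300 on d16, and each was detected in all 4 libraries. Col1a1 was at 1042 and 936 CPM on d8 and at 5471 and 6795 on d16. Blood and macrophage markers summed to 154 and 279 CPM on d8 and to 67.4 and 114 on d16, with 1 to 4 of the 15 listed at 0 in a library. Trophoblast markers summed to 364 and 598 CPM on d8 and to 102 and 98.8 on d16, with 2 to 6 of the 12 listed at 0 in a library. Only 4 of them were tested, and Krt7 and Krt8 among these are also in the epithelial list. Epithelial genes summed to 849 and 1550 CPM on d8 and to 164.5 and 186.1 on d16. Of the 16 epithelial genes tested, 9 were higher and 1 lower on both days. Extraembryonic endoderm markers summed to 886 and 876 CPM on d8 and to 1956 and 1160 on d16. The list also holds the matrix genes Lama1, Lamb1 and Col4a1, so the sums do not measure endoderm alone. Of the 18 listed, 7 and 11 were at 0 counts on d8 and 4 and 5 on d16. Afp was at 0 counts in all 4 libraries, Foxa1 had 17 and 1 counts on d8 and 110 and 49 on d16, and 5 of the 8 tested markers were lower and 0 higher on both days. The part of these cell types in the differences above was not tested.

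Among neural and among proliferation genes, more were lower than higher with LIF on both days, and none had an unadjusted p under 0.05. Of 21 neural genes 13 were lower and 1 higher on both days (median -0.29), and of 23 proliferation genes 15 were lower and 1 higher (median -0.23). Over all genes tested 27.7% were lower and 24.5% higher on both days. Members of a list share the same libraries, 1 a side on each day, and are not replicates. For example, Fabp7, a radial glia protein, was at 205 and 166 CPM on d8 and at 348 and 167 on d16, and Mki67 at 330 and 264 and at 225 and 168. In the amino acid and stress list, Slc7a11, the cystine transporter, was at 11.8 and 6.38 CPM on d8 and at 416 and 112 on d16, and Phgdh, the first enzyme of serine synthesis, at 106 and 65.9 and at 279 and 113, both with an unadjusted p under 0.05 and a list median of 0.13. Without AICAR d16 the fitted log2 difference of Slc7a11 turned from -1.54 to 0.11. Interferon response genes had a median of 0.52 with 10 of 16 higher and 0 lower on both days. Glycolysis genes had a median of 0.01 and mitochondrially encoded genes of 0.28, and 12 of the 13 mitochondrially encoded genes were higher on both days. In each of the germ cell, p53 and CDK inhibitor, fibroblast, mesenchymal transition, formative and ERK lists 1 gene had an unadjusted p under 0.05, among them Cdkn2a, at 15.7 and 53.2 CPM on d8 and at 7.80 and 23.2 on d16, and Prdm1, with 1 and 4 counts and then 4 and 16. The mesendoderm, trophoblast, epithelial, blood, glycolysis and mitochondrially encoded lists held 0 such genes. Over all genes tested, 1.12% had an unadjusted p under 0.05 on the higher side and 1.18% on the lower.

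**Figure D4:**
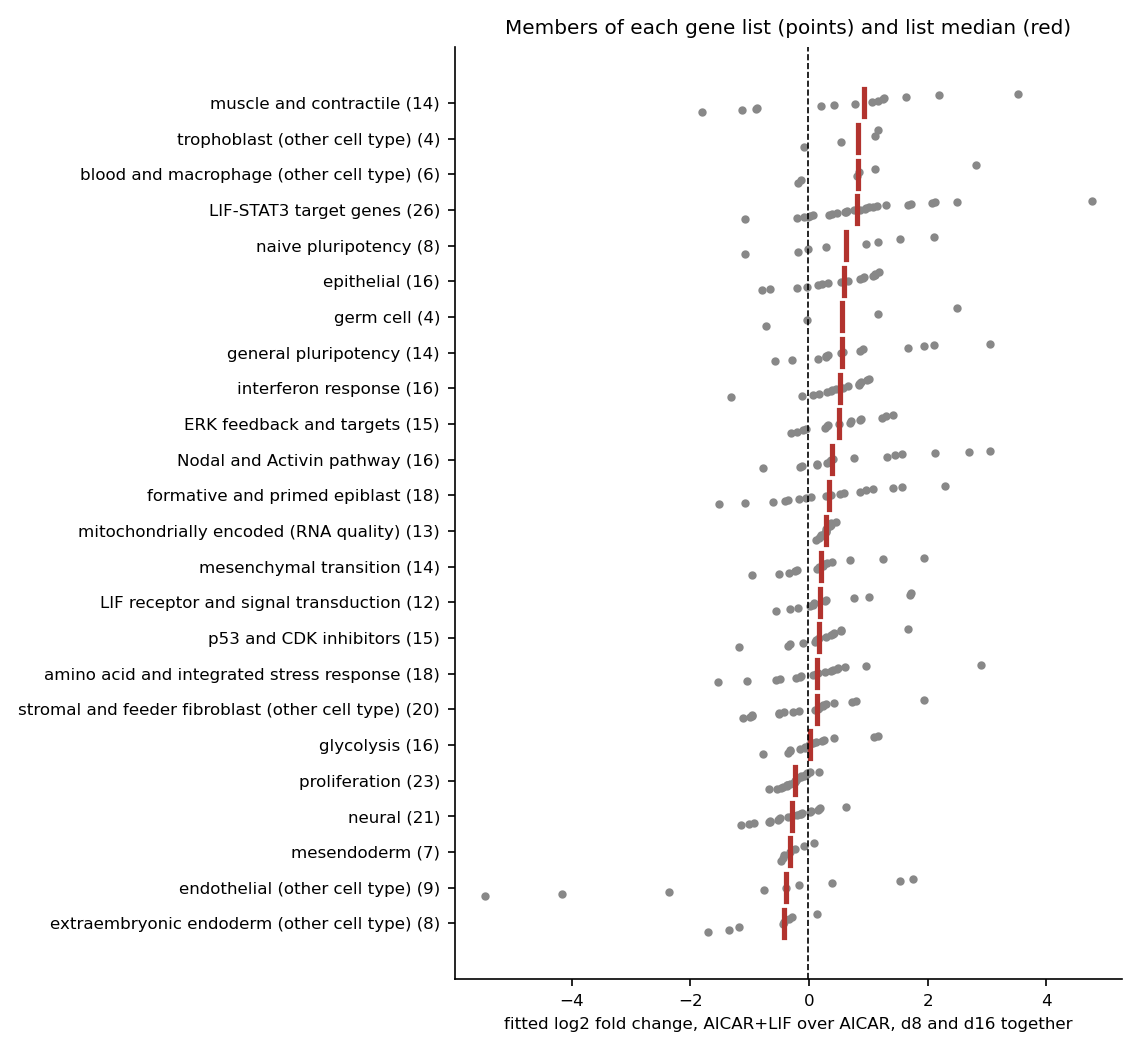
Fitted log2 fold changes of AICAR+LIF over AICAR for the tested members of each gene list (grey points; number in parentheses), with the list median as a red bar and the median of all genes (-0.02) as a dashed line. The muscle list has the highest median (0.92), the LIF-STAT3 target list has 0.80, and the extraembryonic endoderm list has the lowest (-0.43).

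The next comparison asked whether the LIF difference with AICAR differed from the difference between 2iL and Basal. No gene passed (0 of 15473, 0.0%), while 310 had an unadjusted p under 0.05 in the positive and 312 in the negative direction by edgeR, and DESeq2 gave 15 and limma voom 0. Ttr came nearest, with an adjusted p of 0.0653. Its log2 difference was -1.70 ± 0.37 for LIF with AICAR and -8.59 ± 0.48 for 2iL minus Basal. Epha7, Wnt1, Rspo2 and the predicted gene Gm3912 followed on the positive side. Wnt1, a Wnt ligand of the midbrain, had 66 and 16 counts on d8 and 59 and 34 on d16 in AICAR and AICAR+LIF, and it was at 28.4 and 0.810 CPM on d8 and at 9.12 and 0.416 on d16 in Basal and 2iL. On the negative side were Bmp5, a BMP ligand, Fmo1, Foxd1, Fbn2 and Sulf2. Fmo1 was at 70.7 CPM in Basal and 86.9 in 2iL on d16. Bmp5 had 23 and 4 counts on d8 and 220 and 104 on d16 in AICAR and AICAR+LIF, and it was at 1.71 CPM in Basal and 12.9 in 2iL on d16. The log2 difference of 2iL minus Basal was above 0 for all 5 of these genes and that of LIF with AICAR below 0.

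The last comparison set the LIF difference in the early cultures against that in cells expanded in 2iL afterwards. Each AICAR+LIF library was paired with the AICAR library of its line and passage. In the expanded cells both arms held LIF, so there the arms differed only in whether LIF was present before d16. Stage and culture conditions changed together between early and expanded cells and cannot be told apart. Of 16315 genes, 3 passed (0.0184%), Tdgf1, Spp1 and Slc2a3, and all 3 had the larger LIF difference in the early cultures. Tdgf1 had a log2 difference of 3.30 ± 0.37 (SE) in the 2 early pairs and -0.05 ± 0.14 in the 4 expanded pairs (difference 3.35 ± 0.40, edgeR adjusted p = 0.0258). Spp1, the secreted matrix protein osteopontin, was at 62.0 and 166 CPM on d8 and at 109 and 293 on d16, with 1.41 ± 0.14 early and 0.11 ± 0.09 expanded (difference 1.30 ± 0.17, edgeR adjusted p = 0.0258). Slc2a3, the glucose transporter GLUT3 (chromosome 6, 122727809–122801640), was at 137 and 248.8 CPM on d8 and at 47.4 and 128 on d16, with 1.15 ± 0.17 early and -0.25 ± 0.10 expanded (difference 1.40 ± 0.20, edgeR adjusted p = 0.0462). limma voom called none of the 3, nor did the fits without the Oct4GIP d16 pair, without the 129/MSM pair or without the pair terms, and the early difference was the larger in all of them.

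Pou5f1 and Nanog came next, at an edgeR adjusted p of 0.0645 and 0.169. Pou5f1 had a log2 LIF difference of 2.00 ± 0.27 early and 0.07 ± 0.10 expanded, and Nanog 2.22 ± 0.33 and 0.08 ± 0.14. In CPM of the plain library totals, Pou5f1 was at 736 to 1109 and Nanog at 450 to 773 across the 8 expanded libraries, with and without LIF in the first phase. The AICAR+LIF d16 culture, at 21.2 and 28.7 CPM on that scale, stood at 2.88% and 6.38% of the lowest expanded level. Tdgf1 was at 208 to 576 CPM in expanded cells and at 43.2 in the AICAR+LIF d16 culture. Lcn2 was at 0 counts in all 8 expanded libraries. On the negative side, Slit2, Foxp2, Ptch1, Slc38a2 and the predicted gene Gm7901 had the smallest p with adjusted p from 0.293 to 0.443. Foxp2, a forkhead factor, had 14 and 1 counts on d8 and 240 and 31 on d16, with -2.67 ± 0.37 early and 0.11 ± 0.39 expanded.

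**Figure D5:**
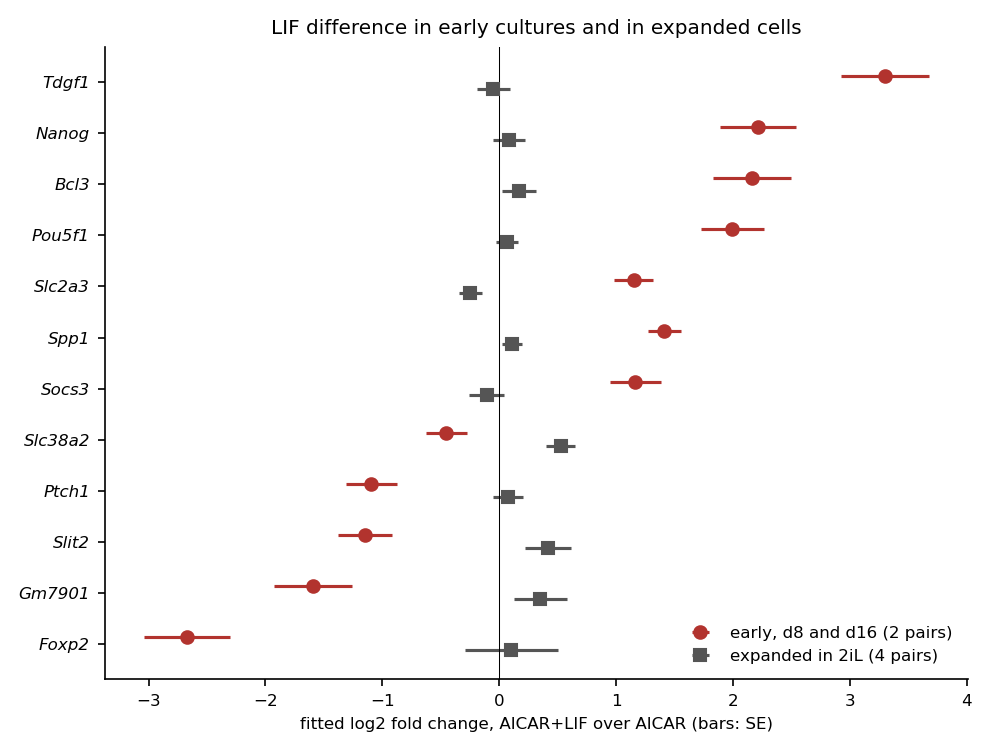
Fitted log2 fold change of AICAR+LIF over AICAR with its SE for 12 genes, in the 2 early pairs (circles) and in the 4 pairs expanded in 2iL (squares). Tdgf1, Spp1 and Slc2a3 passed the test of the difference, the expanded values lie near 0 for most genes, and Slc38a2 lies on opposite sides of 0.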

How the data were processed

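RNA-seq was done on whole cultures. According to their methods and processing notes, the authors prepared libraries from polyA RNA with a strand-marking kit. Single-end reads went through Bowtie2 2.2.5 against GRCm38 cDNA and ncRNA, and those under a MAPQ of 1 were dropped. They deposited raw counts per gene (34489 genes, 22 libraries), which were used here. Transcript counts and numbers of detected genes were not used.

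Counts of the 8 early libraries were tested with edgeR 4.0.16 in R 4.3.3 (quasi-likelihood, TMM factors, filterByExpr, Benjamini-Hochberg adjustment at 0.05), with terms for medium and day, which left 3 residual degrees of freedom. The early and expanded differences were compared in 12 libraries with a term for each pair. The SE given for an edgeR difference is its absolute log2 value divided by the square root of the F statistic. Within a day, log2 ratios used a prior count of 0.5 scaled to library size (0.197 CPM), and ratios have exact 95% conditional binomial intervals. A count of 3 is the floor. Alternatives used DESeq2 1.42.0, limma 3.58.1, other filters, scalings, covariates and libraries. Scripts were tested on simulated data. Positions are from GENCODE M21. Other steps used Python 3.11.15, pandas 2.3.3, scipy 1.17.1 and matplotlib 3.10.9.

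Named genes are the 10 in each direction for the main comparison and the 5 for the other 2 tests (adjusted p under 0.05, or else the smallest unadjusted p, at 3 or more in mean log2 CPM and 1 direction over both days), the members of the 2 LIF lists, the most abundant members of other lists, and genes the study measured. C3, Chil1, Aplnr, Actc1, Afp, Tek, Tie1, Nodal, Sall4, Lin28a and L1td1 were chosen after their values were seen. Groups, lists and genes were chosen with earlier results of these data known.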

Additional observations from a re-analysis of the deposited data

Results flagged for a closer look

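For 3 genes the difference between AICAR+LIF and AICAR was not the same in early cultures and expanded cells. The test of this in edgeR gave 3.35 on the log2 scale for Tdgf1, 1.30 for Spp1 and 1.40 for Slc2a3. Each was larger in the early cultures (2 of 2 early pairs higher with LIF). Both arms of the expanded cells grew with LIF, so their values do not describe a response to LIF at collection.

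Among the genes selected for naming, the only ones searched for this, 2 went opposite ways on the 2 days with counting intervals that did not include 1. The difference between the days was not tested. Over all 15473 genes tested, 52.1% had the same direction on both days, whatever the interval, so opposite directions were common. Actc1, the cardiac actin, had an AICAR+LIF over AICAR ratio of 5.74 on d8 and 0.229 on d16. Cdh1, E-cadherin, had a ratio of 1.91 (1.33 to 2.74) on d8 and 0.456 (0.282 to 0.719) on d16, with 69 and 61 counts on d8 and 72 and 27 on d16.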

How the results depend on the processing

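For AICAR+LIF against AICAR, the count of 0 genes became 1 with DESeq2, 17 with no filter on low counts, 320 in the fit on the 4 libraries alone and, in an alternative chosen after seeing the data, 39 in the 12-library fit with a block for each pair. It stayed at 0 with limma voom, with no normalization factors, with at least 10 counts in every library, after thinning, with all 22 libraries, with no term for the day (no replicate block), without both d8 libraries with AICAR (also chosen after seeing the data) and when any of the 8 libraries was left out (0 to 0). For the difference from 2iL minus Basal, 0 became 15 with DESeq2, 1 with no normalization factors, 120 with no filter and 1 after thinning (0 to 0 with a library left out). For early against expanded cells, 3 became 7 with DESeq2, 0 with limma voom, 135 with no filter, 1 with at least 10 counts, 0 with no replicate block for the pairs and 0 with Oct4GIP alone, and 0 to 8 when a pair was left out (0 without the Oct4GIP d16 or the 129/MSM pair). Tdgf1 was called in 9 of 14 settings, Spp1 in 8 of 15 and Slc2a3 in 7 of 15, and their limma voom adjusted p was 0.200, 0.0771 and 0.200. Oct4GIP alone and the fit without the 129/MSM pair use the same libraries, so these counts hold that fit under both names. The count of genes at least 2-fold higher on both days, 199, was 320 after thinning. The 5 LIF-STAT3 targets with an unadjusted p under 0.05 became 9 with limma voom, 10 with no filter, 2 with at least 10 counts, 12 in the 4 libraries, 1 with no term for the day (no replicate block), and 1 to 7 with a library left out. With a library left out, the fitted log2 difference ranged from -5.52 to 0.16 for Cdh5, from -0.50 to 5.04 for Lcn2, from -1.45 to 3.84 for Saa3 and from -2.20 to 0.11 for Slc7a11, turning without a d16 library. The cause of these shifts was not tested, apart from the number of genes and libraries each setting leaves. d8 and d16 are paired by the day in the labels. The depth of AICAR+LIF d8 limits what d8 can show for genes below 6.38 CPM.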
